A study of Bos taurus with 9 samples.

Results

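Of the genes on the array, 4 whose products build or cross-link a hyaluronan-rich matrix are described here: HAS2, TNFAIP6, PTX3 and VCAN. They were taken as every probe set to which the array's annotation gives one of these names as its only symbol, which yielded 9 of the 24128 probe sets: 3 for HAS2, 2 for TNFAIP6, 1 for PTX3 and 3 for VCAN. The cells were stromal and epithelial cells of bovine endometrium, the lining of the uterus, isolated from 9 Holstein/Polish Black and White cows early in the oestrous cycle (days 2 to 5) and cultured together at a ratio of 3 stromal to 1 epithelial cell. They received lysophosphatidic acid together with interferon tau (LPA+IFNt), lysophosphatidic acid alone (LPA), or phosphate-buffered saline (control), and RNA was taken after 6 h. LPA, a signalling lipid that acts through G protein-coupled receptors, was given at 1e-06 M as the oleoyl form, and interferon tau, the type I interferon by which the ruminant embryo signals to the uterus, at 1000 antiviral units with no volume stated. Each group had 3 arrays, and each array measured a pool of RNA from 3 cows, so that 9 pools of 9 cows must share animals and are not all independent. All groups had been moved from serum-containing medium to medium with bovine serum albumin before exposure. Interferon tau without LPA was not analysed here, so its effect alone could not be estimated.

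Hyaluronan is a long unbranched sugar polymer that is made at the cell membrane and extruded into the space around the cell. HAS2 encodes one of the hyaluronan synthases. TNFAIP6 encodes TSG-6, a secreted protein that binds hyaluronan and transfers protein heavy chains from the serum protein inter-alpha-inhibitor onto it, and PTX3 encodes pentraxin 3, a secreted pattern-recognition protein that binds such heavy chains and so helps to cross-link the polymer. VCAN encodes versican, a large proteoglycan that binds hyaluronan at one end and carries chondroitin sulfate chains. These proteins are best known together from the matrix that swells around the egg before ovulation, and versican and hyaluronan are also parts of the stromal matrix of many tissues.

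All 9 probe sets were measured above background on every array. Values are log2 expression values, so a difference of 1 is a doubling, and 2.80, the highest reading among 3 probe sets that target the trp gene of a bacterium, served as the background level. The lowest value of any of the 9 probe sets was 4.29, for the dimmer TNFAIP6 probe set on a control array. Since probe sets differ in how strongly they bind, levels were compared between groups within a probe set and not between genes. In a bulk sample a lower value can come from fewer cells of a type or from less RNA per cell, and the arrays cannot tell these apart.

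TNFAIP6 was higher with LPA+IFNt than in either of the other groups, VCAN was lower with LPA+IFNt than with LPA, and no call was made for HAS2 or PTX3. The VCAN result is the less firm: its call, made in 1 of 3 probe sets, was lost in 11 alternative fits and kept in 7. The brighter TNFAIP6 probe set kept its calls in all 18. Differences were tested with limma across all 24016 non-control probe sets, and a call means a Benjamini-Hochberg adjusted p under 0.05. In LPA+IFNt against control 2 of the 9 probe sets were called, both of TNFAIP6 and both higher, beside 5.34% of all probe sets called in either direction, 2.48% higher and 2.86% lower. With LPA+IFNt against LPA 2 were called, 1 of TNFAIP6 as higher and 1 of VCAN as lower, beside 6.54% of all probe sets in either direction, 2.56% higher and 3.98% lower. In LPA against control 0 of the 9 were called by limma, beside 0.0708% of all probe sets in either direction, 0.0500% higher and 0.0208% lower. Without adjustment 5 of the 9 had p under 0.05 in that comparison, all of them with higher means in LPA (1 of TNFAIP6, 1 of HAS2 and 3 of VCAN), beside 8.30% of all probe sets. The comparisons share arrays, so their values are given side by side and are not independent of each other.

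**Figure D1:**
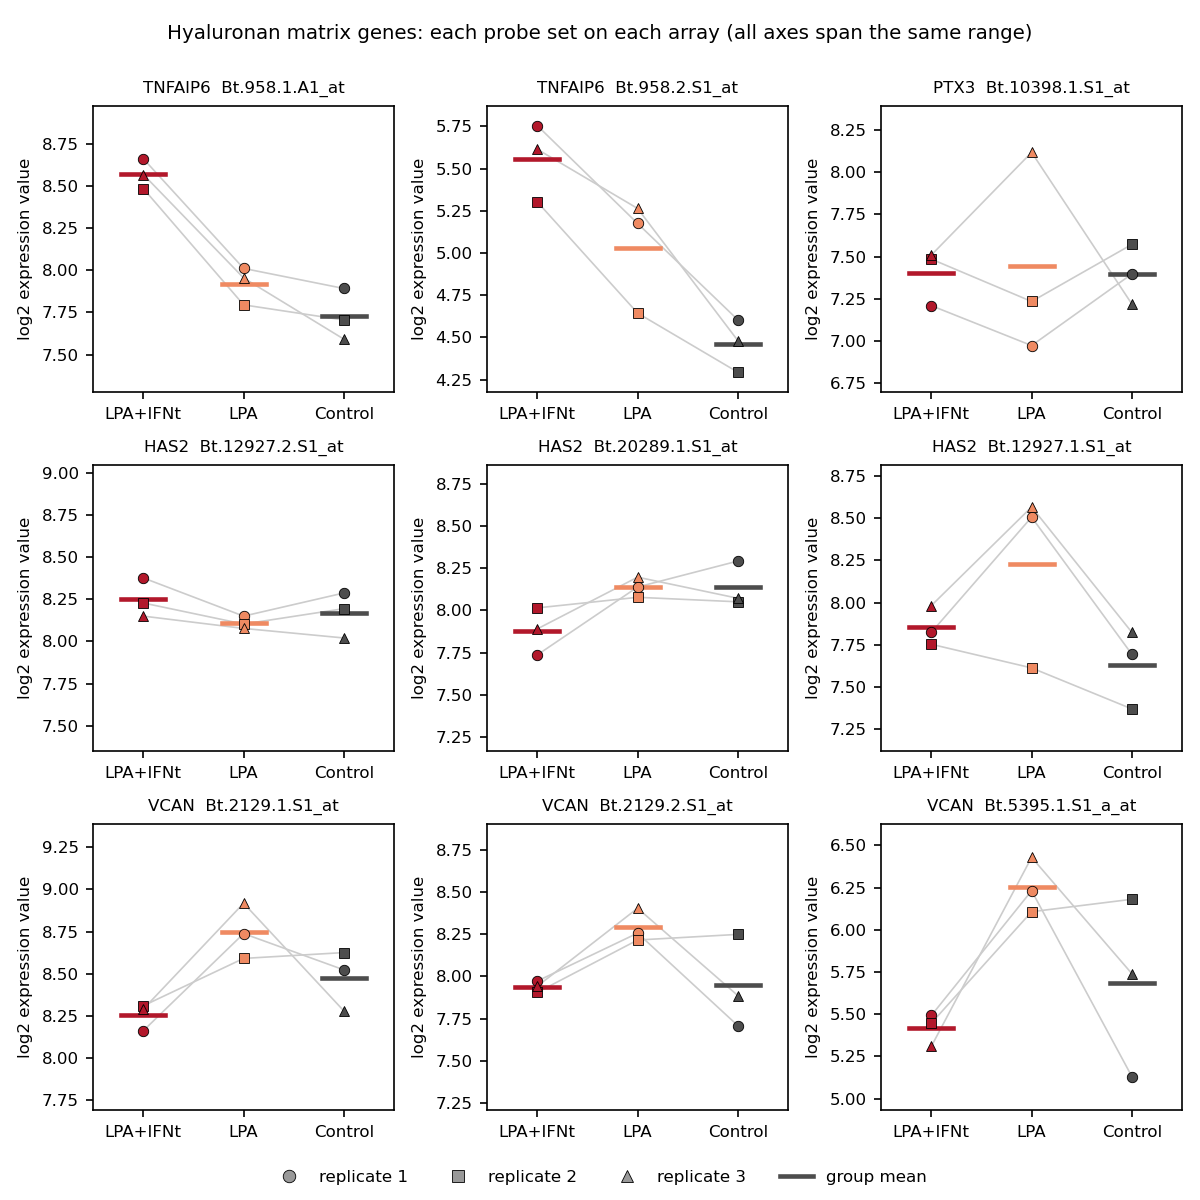
Log2 expression value (vertical axis) of each of the 9 probe sets on each array, by group. Symbols mark replicates, short bars the group means, grey lines join arrays with the same replicate number, and every panel spans the same range. Both TNFAIP6 panels have the 3 LPA+IFNt arrays on top, the 3 VCAN panels have the LPA+IFNt arrays below the LPA arrays, and HAS2 (Bt.12927.1.S1_at) has LPA replicate 2 far below the other LPA arrays.

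HAS2, the synthase gene, gave no call in any comparison, and its 3 probe sets did not behave alike. The brightest, Bt.12927.2.S1_at, read 8.38, 8.23 and 8.15 on the LPA+IFNt arrays, 8.15, 8.10 and 8.08 on the LPA arrays and 8.29, 8.19 and 8.02 on the control arrays. The groups overlapped, and the 9 values lay within a narrow band. Its log2 fold changes were 0.08 for LPA+IFNt against control (95% interval -0.10 to 0.27, limma adjusted p = 0.594), -0.06 for LPA against control (-0.24 to 0.13, adjusted p = 1) and 0.14 for LPA+IFNt against LPA (-0.04 to 0.33, adjusted p = 0.455).

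A second HAS2 probe set, Bt.20289.1.S1_at, read 7.74, 8.02 and 7.89 with LPA+IFNt, 8.14, 8.08 and 8.20 with LPA and 8.29, 8.05 and 8.07 in control. Here the 3 LPA+IFNt arrays lay below all LPA and all control arrays, and over the whole array 18.7% of probe sets had no overlap between LPA+IFNt and LPA and 23.1% none between LPA+IFNt and control. Its log2 fold changes were -0.26 against control (SE 0.088, limma adjusted p = 0.178) and -0.26 against LPA (SE 0.088, adjusted p = 0.166), neither past the threshold. LPA and control had the same mean of 8.14.

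The third HAS2 probe set, Bt.12927.1.S1_at, read 7.82, 7.75 and 7.98 with LPA+IFNt, 8.51, 7.61 and 8.57 with LPA and 7.69, 7.37 and 7.82 in control. LPA replicates 1 and 3 were the highest of the 9 arrays, whereas LPA replicate 2 lay within the range of the control arrays. The log2 fold change of LPA against control was 0.60 (SE 0.25, 95% interval 0.02 to 1.18, limma adjusted p = 0.588), and that of LPA+IFNt against LPA was -0.38 (SE 0.25, adjusted p = 0.552). A single array decided both values: without LPA replicate 2 they were 0.91 (adjusted p = 0.0496) and -0.68 (adjusted p = 0.0271), both past the threshold. Between arrays of the same replicate number, LPA exceeded control by 0.81, 0.24 and 0.74 in replicates 1, 2 and 3. The other HAS2 probe sets showed no such rise in LPA replicates 1 and 3, where the brightest differed from control by -0.14 and 0.06.

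TNFAIP6, the TSG-6 gene, rose with LPA+IFNt in both probe sets. Its brighter probe set, Bt.958.1.A1_at, read 8.66, 8.48 and 8.57 with LPA+IFNt, 8.01, 7.79 and 7.95 with LPA and 7.89, 7.70 and 7.59 in control. Every LPA+IFNt array lay above every array of the other groups, and the LPA and control arrays overlapped. Over all probe sets, 23.1% had no overlap between LPA+IFNt and control and 18.7% none between LPA+IFNt and LPA. The mean of 8.57 ± 0.088 with LPA+IFNt stood against 7.73 ± 0.15 in control (SD, n = 3 each), a log2 fold change of 0.84 or 1.79-fold (SE 0.090, limma adjusted p = 0.00155). Against the LPA mean of 7.92 ± 0.11 the log2 fold change was 0.65, or 1.57-fold (SE 0.090, limma adjusted p = 0.00552). Adjusted p over all alternatives ran from 0.000121 to 0.0105 against control and from 0.00121 to 0.0339 against LPA, so both calls held in each of them. LPA against control gave 0.19 (95% interval -0.02 to 0.40, adjusted p = 0.656), which was not past the threshold.

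The dimmer TNFAIP6 probe set, Bt.958.2.S1_at, read 5.75, 5.30 and 5.61 with LPA+IFNt, 5.17, 4.64 and 5.26 with LPA and 4.60, 4.29 and 4.48 in control. The 3 groups formed 3 steps that did not overlap, with LPA replicate 2 just above the highest control array, and no overlap between LPA and control was seen for 10.0% of all probe sets. LPA+IFNt exceeded control by 1.10 on the log2 scale, or 2.14-fold (SE 0.18, limma adjusted p = 0.0139), a call that was lost without control replicate 2 (adjusted p = 0.0601), LPA+IFNt replicate 1 (0.0532) or LPA+IFNt replicate 3 (0.0543). LPA+IFNt exceeded LPA by 0.53 (SE 0.18, adjusted p = 0.175), which passed with the replicate number as a block (adjusted p = 0.0181). For LPA against control the log2 fold change was 0.57 (SE 0.18, 95% interval 0.14 to 1.00, adjusted p = 0.445), not past the threshold.

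Within each replicate number TNFAIP6 kept the same order of groups in both probe sets. LPA+IFNt exceeded control in replicates 1, 2 and 3 by 0.77, 0.78 and 0.98 in the brighter probe set and by 1.15, 1.01 and 1.13 in the dimmer one. LPA exceeded control by 0.12, 0.09 and 0.36 in the brighter and by 0.57, 0.35 and 0.78 in the dimmer probe set. LPA was thus higher than control in replicates 1, 2 and 3 of both probe sets, without a call in either. The probe sets read the same arrays, so their pairs are not independent. The share of all probe sets with the same direction in every replicate was not computed.

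PTX3, the pentraxin 3 gene, had the same mean in all groups to within its error and was the most variable of the 4 genes with LPA. Its probe set, Bt.10398.1.S1_at, read 7.21, 7.49 and 7.51 with LPA+IFNt, 6.97, 7.23 and 8.12 with LPA and 7.40, 7.57 and 7.22 in control. LPA replicate 3 was the highest and LPA replicate 1 the lowest of the 9 arrays. Means were 7.40 ± 0.17 with LPA+IFNt, 7.44 ± 0.60 with LPA and 7.40 ± 0.18 in control (SD, n = 3 each). The 95% intervals of the log2 fold changes ran from -0.63 to 0.64 for LPA+IFNt against control, from -0.59 to 0.68 for LPA against control and from -0.68 to 0.59 for LPA+IFNt against LPA, with limma adjusted p of 0.993, 1 and 0.936. Changes of about 1.5-fold either way lie inside these intervals, so a p that missed the threshold does not show that PTX3 was equal in the groups.

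**Figure D2:**
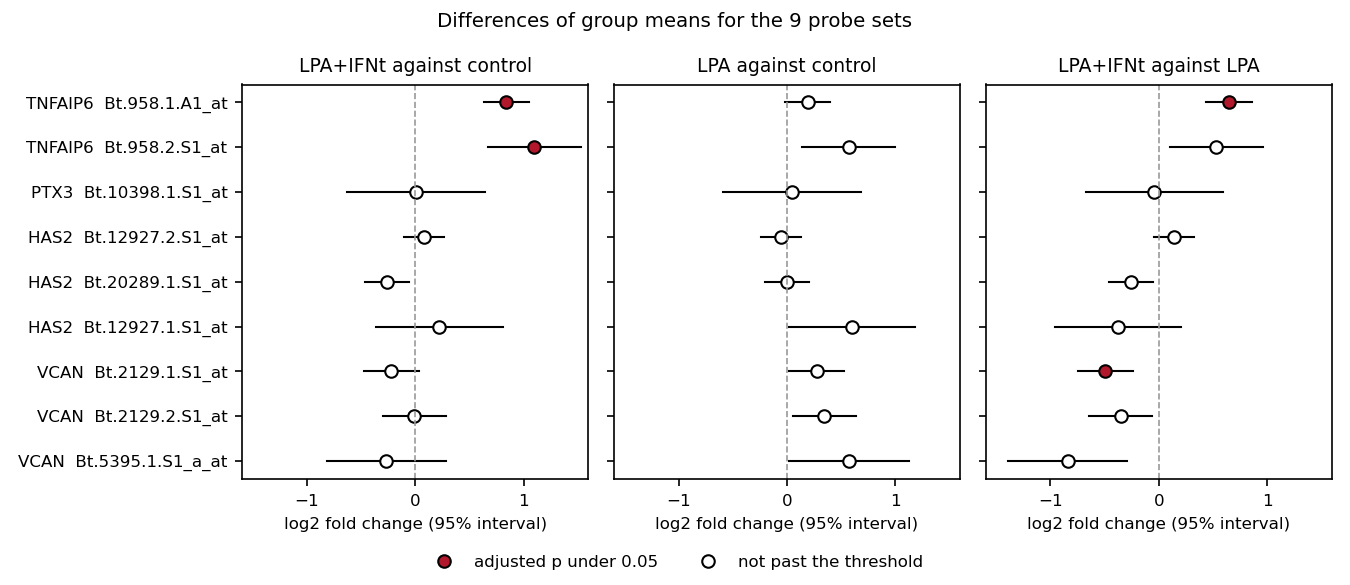
Log2 fold change (horizontal axis, points) with its 95% interval from limma (lines) for each of the 9 probe sets in the 3 comparisons. Filled points mark adjusted p under 0.05, which are both TNFAIP6 probe sets for LPA+IFNt against control (0.84 and 1.10) and 1 probe set each of TNFAIP6 (0.65) and VCAN (-0.49) for LPA+IFNt against LPA.

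VCAN, the versican gene, was lower with LPA+IFNt than with LPA in all 3 probe sets, 1 of which was called. The brightest, Bt.2129.1.S1_at, read 8.16, 8.31 and 8.29 with LPA+IFNt, 8.74, 8.59 and 8.92 with LPA and 8.52, 8.63 and 8.28 in control. All LPA+IFNt arrays lay below all LPA arrays, while the control arrays spanned the gap between them and overlapped with both. LPA+IFNt and LPA did not overlap in any VCAN probe set, beside 18.7% of all probe sets without overlap between these groups. LPA+IFNt averaged 8.25 ± 0.080 and LPA 8.75 ± 0.16 (SD, n = 3 each), a log2 fold change of -0.49, with the LPA mean 1.41 times the LPA+IFNt mean (SE 0.11, limma adjusted p = 0.0391). The call depended on single arrays: adjusted p was 0.0737 in a fit blocked on replicate number, 0.0631 without control replicate 1, 0.117 without LPA replicate 1, 0.1005 without LPA replicate 3, and 0.123, 0.0878 and 0.0955 without LPA+IFNt replicate 1, 2 and 3. Its log2 fold change stayed between -0.57 and -0.41 with any 1 array left out.

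The other VCAN probe sets pointed the same way without a call. Bt.2129.2.S1_at read 7.97, 7.90 and 7.94 with LPA+IFNt, 8.26, 8.22 and 8.40 with LPA and 7.71, 8.25 and 7.89 in control. Bt.5395.1.S1_a_at read 5.49, 5.45 and 5.31 with LPA+IFNt, 6.23, 6.11 and 6.43 with LPA and 5.13, 6.18 and 5.74 in control. In both, the LPA+IFNt arrays lay close together and below all LPA arrays, and the control arrays were spread widely, with control replicate 2 near the LPA level and control replicate 1 lowest. LPA+IFNt against LPA gave -0.35 (SE 0.13, limma adjusted p = 0.188) for the first and -0.84 (SE 0.24, adjusted p = 0.0936) for the second. The first passed without control replicate 2 (adjusted p = 0.0339), and the second without control replicate 1 (0.0162) or control replicate 2 (0.0374), which are arrays of neither compared group and enter only through the shared estimate of the spread.

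In LPA against control the 3 VCAN probe sets had log2 fold changes of 0.27, 0.34 and 0.57 in the order given (limma adjusted p = 0.56, 0.511 and 0.58), and in LPA+IFNt against control of -0.22, -0.008 and -0.27 (adjusted p = 0.372, 0.975 and 0.578). None passed. Taken by replicate number, LPA differed from control by 0.22, -0.03 and 0.64 in the brightest probe set, 0.55, -0.03 and 0.52 in the second and 1.10, -0.07 and 0.69 in the third, for replicates 1, 2 and 3. Replicates 1 and 3 were thus higher with LPA in each probe set, and replicate 2 was not. LPA+IFNt was below LPA in all 3 replicates of all 3 probe sets, by 0.28 to 1.12. These probe sets read the same arrays and are not independent, and the share of all probe sets with such a common direction was not computed.

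LPA replicate 2 was often the lowest LPA array. It was the lowest of the 3 LPA arrays in 7 of the 9 probe sets, among them both of TNFAIP6 and all of VCAN, and over all tested probe sets it was the lowest in 21.7%. That share includes the 37.3% of probe sets with means under the trp level, and none was computed for the brighter ones alone. LPA replicate 2 was also the lowest LPA array for ADAMTS1, ADAMTS4, AREG, CD14 and VCAM1, and not for CD44 or UGDH. Being lowest there was thus also seen in some genes outside the members. Over the whole array the number of probe sets called in LPA against control moved with single arrays, being 17 with all arrays, 11 with the replicate number as a block, 169 without LPA replicate 2, and 0 without LPA replicate 1 (1739 at an unadjusted p under 0.05) or control replicate 2 (1520). It was 8 without control replicate 1, 28 without control replicate 3, and 11 without LPA+IFNt replicate 1 or replicate 3. The calls in LPA+IFNt against control numbered 1282, or 2085 with the block and 791 without control replicate 2, and those in LPA+IFNt against LPA 1571, or 954 without LPA replicate 1. As a check of the labels, 9 of 10 measured interferon response genes rose with LPA+IFNt against control and against LPA. MX2, an antiviral effector gene, averaged 9.71 with LPA+IFNt and was under the trp level on average in LPA (2.17) and control (2.12), so it was at least 120.5-fold higher, measured against the trp level.

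Around the 4 genes, 64 other genes of hyaluronan and versican metabolism were looked up, of which 44 were on the array under their own name and 23 lay above the trp level. By the brightest probe set of each gene, 1 of the 44 was higher and 1 lower in LPA+IFNt against control (limma). In LPA+IFNt against LPA 0 were higher and 1 lower, and in LPA against control 0 were called. At an unadjusted limma p under 0.05 were 4, 7 and 1 of the 44, beside 16.7%, 17.5% and 8.30% of all probe sets. Median log2 fold changes were 0.03, 0.02 and 0.01, and 0.001, -0.03 and 0.01 for the 23 above the trp level. Of all 9155 named genes taken in this way, 6.56% were called in LPA+IFNt against control (3.43% higher, 3.13% lower), 7.91% in LPA+IFNt against LPA (3.75% higher, 4.16% lower) and 0.120% in LPA against control (0.0874% higher, 0.0328% lower), with medians of -0.006, 0.01 and -0.003.

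HAS2 was the only hyaluronan synthase gene above background. HAS1 and HAS3 read at most 1.77 and 2.30 on any array. Genes that supply the sugar precursors gave no call with all arrays, and GFPT1 among them lay under the trp level on every array. UGDH, which encodes the enzyme that makes UDP-glucuronic acid, stood at 11.50 with LPA+IFNt, 11.56 with LPA and 11.63 in control, and UGP2, which makes UDP-glucose, at 12.03, 12.23 and 12.17. In UGP2 the difference between LPA+IFNt and LPA was -0.20 (SE 0.056, limma adjusted p = 0.0906), which passed in a fit blocked on replicate number (adjusted p = 0.022) and without LPA replicate 2 (0.0218). PGM3 and GNPNAT1, of the route to UDP-N-acetylglucosamine, differed between LPA and control by 0.16 (adjusted p = 0.763) and -0.12 (adjusted p = 0.894), and GNPNAT1 between LPA+IFNt and LPA by 0.22 (adjusted p = 0.26, or 0.0481 without LPA replicate 2).

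Genes of hyaluronan breakdown gave no call among 5 measured. CEMIP2, which encodes a cell-surface protein of hyaluronan breakdown, read 6.40, 6.45 and 6.42 with LPA+IFNt, 6.30, 5.74 and 6.65 with LPA and 5.93, 5.99 and 6.08 in control. The LPA+IFNt arrays lay above the control arrays, with a log2 fold change of 0.42 (SE 0.20, limma adjusted p = 0.345, or 0.00752 when fitted on these groups alone). CEMIP2 passed in no other alternative. HYAL2, a hyaluronidase gene, stood at 4.54 with LPA+IFNt, 4.65 with LPA and 4.76 in control (adjusted p = 0.359 for LPA+IFNt against control and 0.639 against LPA). SPAM1, the sperm hyaluronidase gene, read 2.80 to 3.12, close to background.

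Among 7 measured hyaluronan receptor genes 1 was called. TLR4, a receptor of innate immunity at which hyaluronan fragments are reported to act, read 8.20, 7.75 and 8.13 with LPA+IFNt, 7.68, 7.48 and 7.78 with LPA and 7.35, 7.47 and 7.54 in control. The LPA+IFNt arrays lay above all control arrays and overlapped with LPA, and the log2 fold change against control was 0.57 (SE 0.13, limma adjusted p = 0.0498), a value at the threshold. That call was lost without control replicate 1 (adjusted p = 0.168), 2 (0.138) or 3 (0.0892), LPA replicate 1 (0.085) or 3 (0.0552), or LPA+IFNt replicate 1 (0.137) or 3 (0.158). TLR2 differed between LPA+IFNt and LPA by 0.44 (SE 0.16, adjusted p = 0.187) and between LPA+IFNt and control by 0.50 (adjusted p = 0.14), and this second value passed with the replicate block (0.0378). The TLR4 difference between LPA+IFNt and LPA, 0.37 (adjusted p = 0.171), passed without LPA+IFNt replicate 2 (0.0371). CD44, the main hyaluronan receptor of the cell surface, stood at 11.37 with LPA+IFNt, 11.17 with LPA and 11.26 in control, with no call, and HMMR, which encodes a hyaluronan-binding protein of the mitotic spindle, differed between LPA and control by -0.29 (adjusted p = 0.626). LYVE1, STAB1 and STAB2 lay under the trp level.

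Of 13 measured hyaluronan-binding proteins and heavy chain donors, TNFAIP6 and VCAN carried the calls. The genes ITIH1 and ITIH2, whose products are the heavy chains of inter-alpha-inhibitor, the bikunin gene AMBP and the related genes ITIH3 and ITIH4 lay under the trp level on every array, as did the other lectican genes ACAN, BCAN and NCAN. HAPLN3, the gene of a link protein that ties proteoglycans to hyaluronan, was above it at 7.26 with LPA+IFNt, 7.14 with LPA and 7.17 in control, with no call. Besides PTX3, the pentraxin genes CRP and APCS were measured, at 2.95 and 2.11 with LPA+IFNt and 2.82 and 2.09 in control, close to or under background and with no call.

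Proteases that cut versican varied with LPA in the same arrays as HAS2 probe set Bt.12927.1.S1_at, without a call. ADAMTS1, the gene of such a protease, read 10.39, 10.15 and 10.68 with LPA+IFNt, 11.15, 10.38 and 11.22 with LPA and 10.38, 10.18 and 10.25 in control, so that LPA replicates 1 and 3 were highest and LPA replicate 2 lay at the control level. Its log2 fold changes were 0.64 for LPA against control (SE 0.23, limma adjusted p = 0.505) and -0.51 for LPA+IFNt against LPA (SE 0.23, adjusted p = 0.315). ADAMTS4 was also highest in LPA replicates 1 and 3, with 7.36, 7.24 and 7.57 with LPA+IFNt, 7.85, 7.41 and 8.14 with LPA and 7.49, 7.37 and 7.47 in control, and log2 fold changes of 0.36 (adjusted p = 0.674) and -0.41 (adjusted p = 0.27). Without LPA replicate 2 both genes were called lower in LPA+IFNt against LPA, ADAMTS1 by -0.78 (adjusted p = 0.0228) and ADAMTS4 by -0.61 (adjusted p = 0.0263). ADAMTS5 lay under the trp level.

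One gene of 8 measured for chondroitin sulfate chains, which versican carries, was called. CSGALNACT2, an enzyme gene of the start and growth of these chains, read 7.90, 8.13 and 7.78 with LPA+IFNt, 8.49, 8.52 and 8.50 with LPA and 8.33, 8.58 and 8.33 in control. All LPA+IFNt arrays lay below all others, with log2 fold changes of -0.57 against LPA (SE 0.098, limma adjusted p = 0.0146) and -0.48 against control (SE 0.098, adjusted p = 0.0325). Its dimmer probe set, Bt.17846.1.A1_at, was not called, and with both probe sets averaged adjusted p was 0.0732 against LPA and 0.209 against control. The call against LPA was lost without LPA replicate 1 (adjusted p = 0.0557) or LPA+IFNt replicate 1 (0.0568). That against control was lost with any array but LPA+IFNt replicate 2 left out, at adjusted p from 0.0504 to 0.103. XYLT2, which encodes a xylosyltransferase that starts the chains, and B3GAT3, an enzyme gene of the linker sugars, differed between LPA and control by 0.13 (adjusted p = 0.64) and -0.07 (adjusted p = 0.998). XYLT2 was called lower in LPA+IFNt against LPA without LPA replicate 2 (adjusted p = 0.00981, against 0.116 with all arrays).

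**Figure D3:**
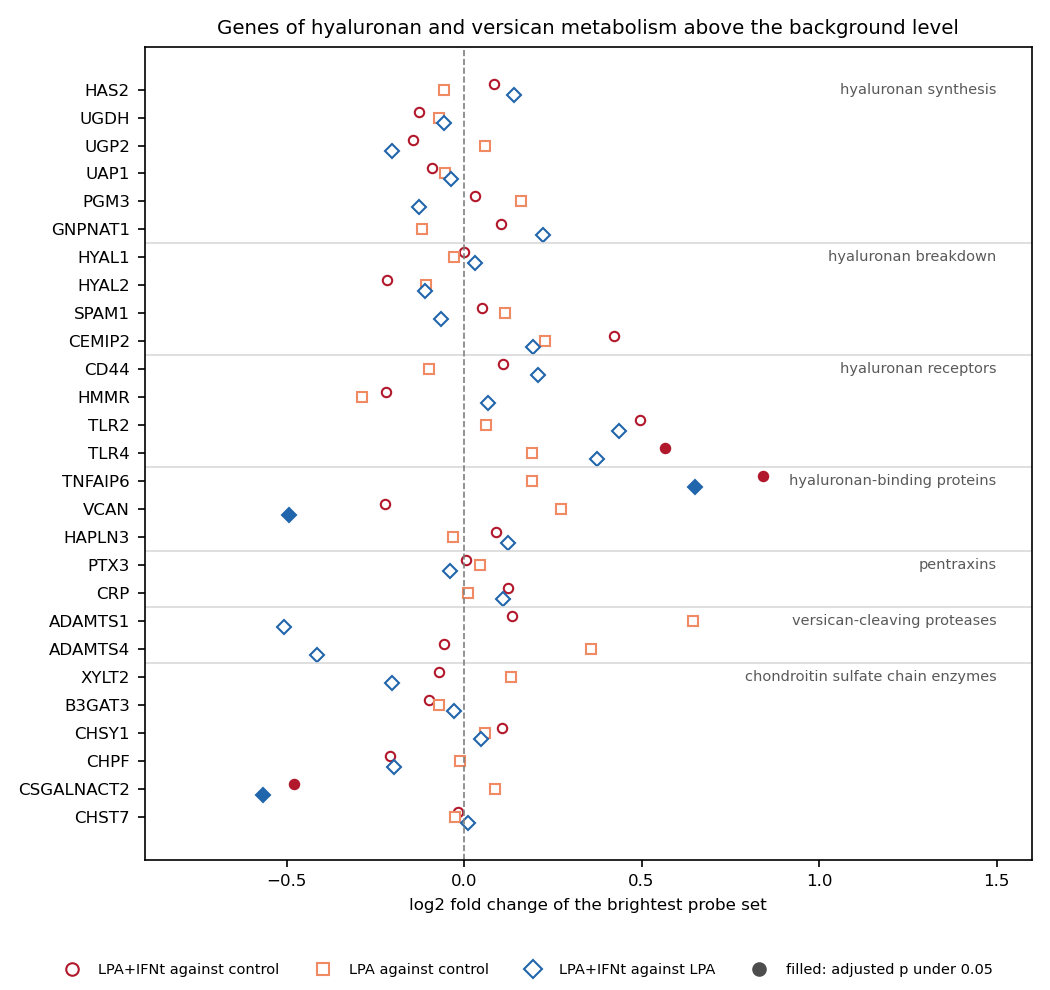
Log2 fold change (horizontal axis) of the brightest probe set of HAS2, TNFAIP6, PTX3, VCAN and the 23 other genes of hyaluronan and versican metabolism whose mean lay above the trp level in at least 1 group, in the 3 comparisons. Filled symbols mark adjusted p under 0.05, which only TNFAIP6, VCAN, TLR4 and CSGALNACT2 reached, while ADAMTS1 had 0.64 for LPA against control with no call.

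Genes that act with the 4 in the matrix around the egg, and targets of the transcription factor NF-kappaB, were set beside TNFAIP6. Of all named genes, 3.43% were called higher in LPA+IFNt against control and 3.75% in LPA+IFNt against LPA. Of 5 measured companions 1 was called: BTC, which encodes the growth factor betacellulin, read 4.84, 4.59 and 4.87 with LPA+IFNt, 3.83, 3.54 and 3.28 with LPA and 3.66, 3.87 and 3.56 in control, rising by 1.07 against control (SE 0.15, limma adjusted p = 0.00577) and by 1.22 against LPA (SE 0.15, adjusted p = 0.003). PTGER4, a prostaglandin E receptor gene, differed between LPA+IFNt and control by 0.65 (adjusted p = 0.0771) with no overlap of the arrays, and passed with the replicate block (0.03) and without LPA replicate 2 (0.00596) or 3 (0.0408). It also passed with spike-in centring (0.02), without dim probe sets (0.039), with an intensity trend (0.0363) and with only these groups fitted (0.00865). PTGS2, the inducible cyclooxygenase gene, differed between LPA+IFNt and LPA by -0.40 (adjusted p = 0.0949), and passed with the replicate block (0.0198) and an intensity trend (0.0468). Without LPA replicate 2, PTGER4 was called higher (adjusted p = 0.00596) and PTGS2 (0.0152) and AREG, the amphiregulin gene, lower (0.00987) in LPA+IFNt against LPA. PTGS2 and AREG differed between LPA and control by 0.22 (adjusted p = 0.696) and 0.15 (adjusted p = 0.889). Of 11 measured NF-kappaB genes, by the brightest probe set of each, 3 were higher in LPA+IFNt against control and 2 against LPA, 0 lower in either, with medians of 0.22 and 0.03, and 0 were called in LPA against control. The chemokine gene CCL2 rose by 0.85 (adjusted p = 0.00565) and 0.73 (adjusted p = 0.0109), the cytokine gene IL6 by 0.43 (adjusted p = 0.0038) and 0.34 (adjusted p = 0.0111) against control and LPA, and the inhibitor gene NFKBIE by 0.32 against control (adjusted p = 0.037). The NFKBIE call was lost with any array but LPA replicate 2 or LPA+IFNt replicate 3 left out (adjusted p from 0.0525 to 0.134) and with its probe sets averaged (0.526). Other genes of the list were not called against control: NFKBIA, NFKBIZ and NFKB2 differed by -0.05, -0.09 and 0.03 (adjusted p = 0.901, 0.789 and 0.878). BIRC3, ICAM1 and CXCL8 differed by 0.35, 0.22 and 0.19 (adjusted p = 0.237, 0.545 and 0.347). In LPA against control NFKBIE differed by 0.30 (adjusted p = 0.216) and the receptor gene CD40 by 0.19 (adjusted p = 0.511). Against LPA the count was 1 with spike-in centring, where IL6 was lost (adjusted p = 0.0775), and 1 in a fit of only LPA+IFNt and LPA, where CCL2 was lost (0.0527). The probe sets of CD40 disagreed: for LPA+IFNt against control the brightest gave -0.05 (adjusted p = 0.688, or 0.0427 as a lower value against LPA without LPA replicate 2), and Bt.13130.1.S1_at was called higher by 1.26 (SE 0.22, adjusted p = 0.0181). The adhesion molecule gene VCAM1, at 1.35 against control (adjusted p = 0.105), passed with the replicate block (0.0196), without LPA replicate 2 (0.0481), with spike-in centring (0.0264) and without dim probe sets (0.0499).

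Some stromal markers were lower with LPA+IFNt, as VCAN was against LPA. Of all named genes, 4.16% were called lower in LPA+IFNt against LPA and 3.13% in LPA+IFNt against control. Of 13 measured stromal markers, a list without VCAN, 5 were lower and 0 higher in LPA+IFNt against LPA (median -0.33): THY1 by a log2 fold change of -0.69 (SE 0.078, limma adjusted p = 0.00208), COL1A1 by -0.55 (SE 0.081), COL3A1 by -0.54 (SE 0.054), FBN1 by -0.40 (SE 0.057) and COL1A2, named after its value was seen, by -0.25 (adjusted p = 0.0326). The count was 4 to 6 with an array left out and 3 with spike-in centring, and COL1A2 was lost without control replicate 3 (adjusted p = 0.0604), LPA replicate 1 (0.106) or 3 (0.103), or LPA+IFNt replicate 2 (0.104) or 3 (0.0999). In LPA+IFNt against control 3 were lower (median -0.145): COL3A1 by -0.51, COL1A1 by -0.39 and FBN1 by -0.39, of which COL1A1 was lost with any array but LPA replicate 1 or 2 left out (adjusted p from 0.0507 to 0.123), and with spike-in centring 1 was called. In LPA against control 0 were called (median 0.06; 1 without LPA replicate 2), with THY1 at 0.55 (adjusted p = 0.0713) and POSTN at 0.55 (adjusted p = 0.432). The mean log2 value over the list was 10.49 to 10.52 with LPA+IFNt, 10.70 to 10.92 with LPA and 10.59 to 10.70 in control, and the summed level on the linear scale 90063 to 91621, 105891 to 115449 and 100834 to 110247. All 13 lay above the trp level in every group. The part of the stromal signal in the VCAN difference was not tested.

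**Figure D4:**
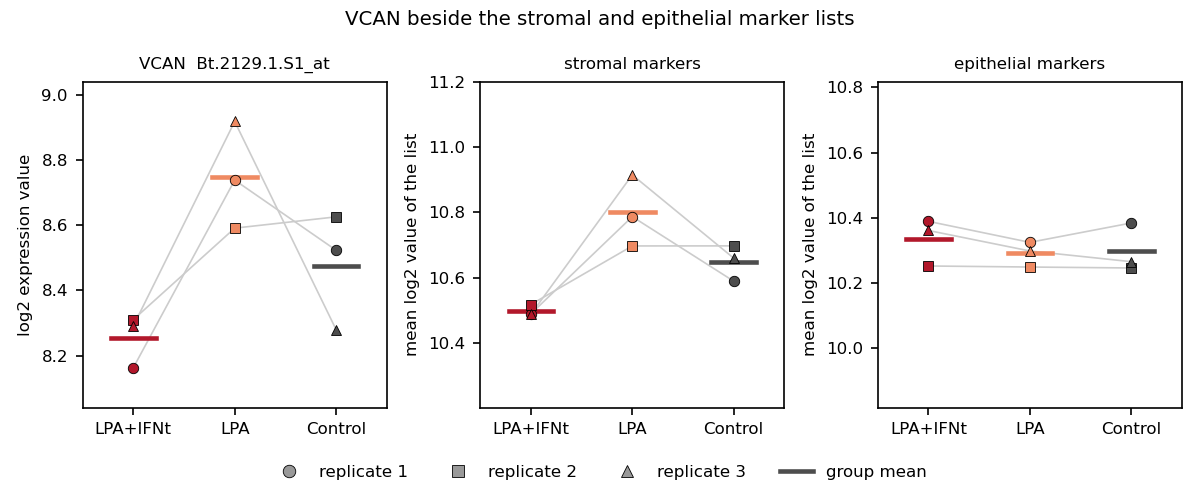
Log2 value of the brightest VCAN probe set, and mean log2 value of 13 stromal and of 14 epithelial markers (vertical axes, each spanning 1 log2 unit), on each array by group. Symbols mark replicates, bars the group means and grey lines the same replicate number. The group means of VCAN and of the stromal markers are lowest with LPA+IFNt, and both are highest in LPA replicate 3, and the epithelial mean overlaps between all groups.

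Markers of other cell types were looked at in the same way. Of all named genes, 6.56% were called in LPA+IFNt against control and 7.91% in LPA+IFNt against LPA. Of 14 epithelial markers, all above the trp level, CDH1 was higher in LPA+IFNt against control (0.21, limma adjusted p = 0.0112, or 0.0511 without control replicate 2) and SPINT2 lower in LPA+IFNt against LPA (-0.45, adjusted p = 0.00457), and the mean over the list was 10.25 to 10.39 with LPA+IFNt, 10.25 to 10.32 with LPA and 10.25 to 10.38 in control. In LPA against control SPINT2 stood at 0.49 (adjusted p = 0.0566, or 0.0124 without LPA replicate 2) and CDH1 at 0.20 (adjusted p = 0.0964). There SPINT2 also passed with median centring (0.0497), without dim probe sets (0.0473), with an intensity trend (0.0228) and with probe sets averaged (0.0452). Of 13 leukocyte markers 6 lay above the trp level with LPA+IFNt, 6 with LPA and 5 in control, with summed levels of 239 to 276, 299 to 382 and 266 to 297, so that the LPA arrays lay above both other groups. CD53 was the only one called with all arrays, higher by 1.26 against control (adjusted p = 0.0252) and 1.15 against LPA (adjusted p = 0.0336). It averaged 4.01 with LPA+IFNt, 2.86 with LPA and 2.75 in control. The last lies under and the LPA mean close to the trp level of 2.80, so the sizes of these differences are uncertain. The first CD53 call held with LPA replicate 2 or 3 or LPA+IFNt replicate 2 left out and was lost without any other array (adjusted p from 0.051 to 0.0974), and the second held with LPA replicate 3 or LPA+IFNt replicate 2 left out and was lost without any other (from 0.0547 to 0.107). CD14 read 6.35, 6.30 and 6.70 with LPA+IFNt, 7.27, 6.80 and 7.66 with LPA and 7.29, 7.05 and 7.20 in control. All LPA+IFNt arrays were below all others, with log2 fold changes of -0.80 against LPA (adjusted p = 0.0758) and -0.74 against control (adjusted p = 0.11). It was called lower in both comparisons with the replicate block (0.0271 and 0.0364), without LPA replicate 2 (0.0124 and 0.0359) and, against control, without LPA replicate 3 (0.0437). CD14 also passed against LPA with spike-in centring (0.0413), median centring (0.0417), dim probe sets left out (0.0366) and an intensity trend (0.0363). Against control it also passed in a fit of only those groups (0.0305). PTPRC and LCP1 differed between LPA and control by 0.75 (adjusted p = 0.614) and 0.59 (adjusted p = 0.169). Without LPA replicate 3, LCP1 passed in LPA against control (0.0345) and as lower in LPA+IFNt against LPA (0.0204), and without LPA replicate 2 PTPRC passed as lower in LPA+IFNt against LPA (0.042). Of 8 endothelial markers 0 lay above the trp level in any group. The part of any of these markers in the TNFAIP6 difference was not tested.

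Genes whose values ran most like those of each member were ranked by Pearson's r over the 9 arrays among 7029 named genes above the trp level, as a description of these arrays in which a high r is bound to be found. For TNFAIP6 they were ZFP36 (r = 0.982), whose protein promotes decay of cytokine mRNAs and which averaged 8.58 with LPA+IFNt, 7.92 with LPA and 7.82 in control, followed by TMEM106A (0.980) and the amino acid transporter gene SLC38A5 (0.975). VCAN was followed by ZFAND3 (0.961), ARL6 (0.943) and APBB1IP (0.943), the last at 7.44 with LPA+IFNt, 8.19 with LPA and 7.78 in control. For PTX3 the highest r was lower, with PLOD2 (0.900), a collagen lysyl hydroxylase gene, KLHL21 (0.888) and CCDC106 (0.882). The brightest HAS2 probe set, which varied little, was closest to DEDD (0.957), NAGPA (0.946) and NME4 (0.937).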

How the data were processed

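The authors deposited log2 expression values per probe set, for which the submitters' processing notes name RMA and Partek, from 100 ng of RNA per pool labelled with an Affymetrix 3' IVT kit per the labels' protocols. RMA corrects background, quantile-normalizes the arrays and summarises probes, so a change shared by most transcripts would be hidden, and base 2 was taken from RMA's usual output and the values. The sources used here give neither software versions nor a genome build. Array medians were 4.30 to 4.38, and the number of arrays limits the precision.

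From these values, 112 Affymetrix control probe sets were left out and 24016 were fitted with limma 3.58.1 in R 4.3.3 (lmFit, eBayes, two-sided, 3 groups, no covariate, no filter on dim probe sets). P-values were Benjamini-Hochberg adjusted over all 24016, with a threshold of 0.05. They rest on the spread between arrays of the same group and treat the pools as independent, although some of the pools must share cows. Names came from the array annotation, of whose 13318 entries with 1 symbol 13283 were found by gene identifier in the RefSeq table of ARS-UCD2.0, with 0 symbols changed. The script was tested on simulated data. The members and all lists were chosen with earlier results of these data known. The text names every member probe set, up to 4 called genes of each list by size, or the 2 of smallest p where none was called, and the 3 genes of highest r per member. For the interferon list it gives only MX2. PTGER4, VCAM1, CD14, MUC1, KRT18 and other genes outside this rule were named after their values were seen.

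Same-numbered arrays of different groups deviated together (r 0.19 to 0.49 in 9 of 9 pairs, against -0.47 to 0.14 for other numbers). This is a hint from the data that the number pairs arrays. The main fit did not use this pairing, and only the replicate block did. Alternatives were the replicate block, each array left out, 2 centrings, a filter on dim probe sets, 2 other variance settings, a fit of only the groups compared, probe sets averaged per gene, and control probe sets kept.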

Additional observations from a re-analysis of the deposited data

How the results depend on the processing

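The alternatives for genes other than the 4 members were chosen after their values were seen. The brightest TNFAIP6 probe set kept its calls throughout, and the brightest probe sets of HAS2 and PTX3 were called in no alternative. The VCAN call in LPA+IFNt against LPA (-0.49) was lost with the replicate block (-0.49), spike-in centring (-0.47), no variance moderation (-0.49), only the 2 groups compared (-0.49) and probe sets averaged (-0.56), and ranged from -0.57 to -0.41 with an array left out. The VCAN probe set Bt.5395.1.S1_a_at passed there without dim probe sets (adjusted p = 0.0457), with an intensity trend (0.0493) and with only the 2 groups compared (0.0115), and Bt.2129.2.S1_at with the last (0.035). The dimmer TNFAIP6 probe set missed the threshold against control with no variance moderation (0.0522).

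Counts of called probe sets in LPA+IFNt against control were 2085 with the replicate block, 788 with no variance moderation and 791 to 1352 with an array left out, against 1282. In LPA+IFNt against LPA they were 901 with no variance moderation, 1004 with only the 2 groups compared and 954 to 2204 with an array left out, against 1571. In LPA against control they were 11 with the block, 49 with spike-in centring, 37 without dim probe sets, 0 with no variance moderation (1476 before adjustment at p under 0.05), 50 with an intensity trend, 1 with only the 2 groups compared, 28 with probe sets averaged and 0 to 169 with an array left out, against 17. Apart from the calls named here and in the report, the replicate block changed no call of a member. Among the other called genes it removed the call of COL1A2 in LPA+IFNt against LPA (adjusted p = 0.0609), and it added those of UGP2, TLR2, PTGER4, PTGS2, VCAM1 and CD14 given in the report and of the epithelial markers MUC1 (0.0288 against control, 0.0157 against LPA) and KRT18 (0.0378 against LPA). The cause of these shifts was not tested.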
